A study of Mus musculus with 8 samples.

Results

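Voltage-gated sodium and calcium channels were examined in the postnatal mouse cortex by taking every protein-coding gene whose symbol is Scn followed by digits and a or b, or begins with Cacna, Cacnb or Cacng. This rule, which uses names and no measured value, gave 40 genes out of the 48709 listed for each library. They were 10 sodium channel alpha genes, 4 sodium channel beta genes, 10 calcium channel alpha1 genes, 4 alpha2delta genes, 4 calcium channel beta genes and 8 gamma genes. RNA-seq counts were compared between 4 control and 4 dcKO_Nex-Cre cortices at P1 (postnatal day 1), with 1 library per sample. According to the study's methods all mice were kept on a C57BL6/J background, controls were heterozygous for both floxed alleles without Cre (BAF155 fl/+, BAF170 fl/+), and dcKO_Nex-Cre mice lost BAF155 (gene *Smarcc1*) and BAF170 (gene *Smarcc2*), scaffold subunits of the BAF chromatin remodelling complex, in projection neurons that have left the cell cycle. The sample labels do not name the Cre line, which was taken from the study. Nex-Cre does not act in glia, interneurons or vessels, so the other cells of the whole tissue keep both genes, and Cre itself was present in the mutant group only, so that its presence and the loss of BAF155 and BAF170 cannot be told apart. Nothing in the labels says which samples came from separate animals, so p-values measure the spread between these samples.

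A voltage-gated sodium channel is a single alpha protein that forms the pore and opens the upstroke of the action potential, held at the membrane by small beta proteins. In forebrain neurons *Scn2a* and *Scn3a* are known as the early alpha genes, whereas *Scn1a* and *Scn8a* gain during postnatal life. Calcium channels are built around an alpha1 pore that sets the channel type (L, P/Q, N, R or T). In L, P/Q, N and R channels, alpha2delta and cytoplasmic beta subunits bind the pore to bring it to the membrane. The gamma genes were named after a muscle channel subunit, but most of those used in brain act on AMPA-type glutamate receptors.

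The alpha genes of the sodium channel are close copies, which bears on how reads are shared out between them. Over whole transcripts (GENCODE M21) the sharing was small. Of all 50-base stretches, 4.03% in *Scn1a*, 5.76% in *Scn2a*, 6.49% in *Scn3a*, 4.16% in *Scn9a* and 0.0374% in *Scn8a* also occurred in another gene. The counting rule for such reads is not given in the sources used here, so the values of the first 4 of these genes carry that uncertainty. Where exons of a member overlapped another gene, that gene had at most 30.1 counts per library on average.

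Library totals ranged from 17958641 to 35191912 counts, and members are given as CPM, counts scaled to a common library size by the TMM method, or as TPM, which also divides by the merged exon length and serves for comparing genes. *Smarcc2* (log2 fold change −0.81, adjusted p = 0.00267 by edgeR) and *Smarcc1* (−0.53, adjusted p = 0.0348) were lower in the dcKO_Nex-Cre cortex, as the labels give. Control replicate 2 and dcKO_Nex-Cre replicate 4 stood apart from the rest, with 6.87% and 6.15% of counts from mitochondrial genes against 2.33% to 4.24% in the other 6 libraries. Among the tested members, control replicate 2 was the highest control for 22 of 35 and dcKO_Nex-Cre replicate 4 the lowest mutant for 20 of 35. dcKO_Nex-Cre replicates 3 and 4 carried lane tag 8 in their file names and all other libraries lane tag 2, so lane tag 8 holds mutants only. Results that rest on these libraries are given with and without them. Markers of projection neurons summed to 1042 to 1098 CPM in the control and 950 to 1190 CPM in the dcKO_Nex-Cre cortex, and none of the 7 passed the test. Single genes went both ways, 4 below 0 and 3 above 0. *Slc17a7* was the lowest (log2 fold change −0.54, unadjusted p = 0.0222 and adjusted p = 0.280 by edgeR). *Cux1* was higher without overlap, at 148 to 153 CPM in the control and 156 to 181 CPM in the mutant. Oligodendrocyte precursor markers were above the control in all 5 genes, 1 of them called (*Cspg4*, log2 fold change 0.56, adjusted p = 0.0355, and 0.00441 to 0.132 with any 1 library left out), with sums of 173 to 252 and 252 to 308 CPM. Since this is bulk tissue, fewer cells of a type and less RNA per cell cannot be told apart.

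The control cortex at P1 used few members of each channel family at high level. Among sodium alpha genes the highest were *Scn3a* at 38.6 ± 1.29 TPM and *Scn2a* at 36.9 ± 4.62 TPM (SD, n = 4 here and below), which did not differ beyond their spread. *Scn8a*, the alpha of the mature axon initial segment, followed at 15.5 ± 0.899 TPM, then *Scn1a* at 9.18 ± 0.572 TPM and *Scn9a* at 7.003 ± 1.64 TPM. The muscle gene *Scn4a* (0.0296 TPM) and the sensory neuron genes *Scn10a* (0.212 TPM) and *Scn11a* (0.391 TPM) were low. *Scn3b* was the highest beta gene at 169 ± 19.9 TPM, against 9.30 TPM for *Scn2b* and 0.526 TPM for *Scn4b*.

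The calcium channel pores were more evenly used. *Cacna1h*, a T-type pore, was the highest at 49.1 ± 5.08 TPM, followed by the N-type *Cacna1b* at 42.7 ± 0.893 TPM and the T-type *Cacna1g* at 28.0 ± 2.80 TPM. The R-type *Cacna1e* (17.1 TPM), the P/Q-type *Cacna1a* (17.0 TPM) and the L-type *Cacna1c* (14.8 TPM) and *Cacna1d* (14.2 TPM) lay close together. The retinal *Cacna1f* (0.166 TPM) and the skeletal muscle *Cacna1s* (0.0585 TPM) were near 0. Of the subunits that bind the pore, *Cacna2d1* (47.8 TPM) led the alpha2delta genes and *Cacnb3* (218 ± 4.26 TPM) the beta genes. *Cacng4* (205 ± 9.69 TPM) and *Cacng7* (177 ± 14.2 TPM) led the gamma genes, with *Cacng2*, which encodes stargazin, at 30.3 TPM. *Cacng1*, the subunit of the skeletal muscle channel, was at 4.05 ± 0.895 TPM, which is 1.42 CPM. The 5 skeletal muscle markers summed to 4.65 to 6.09 CPM, more than *Cacng1* on that scale. Of these, *Ckm* and *Myog* gave little, at 0.0713 and 0.0333 CPM.

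**Figure D1:**
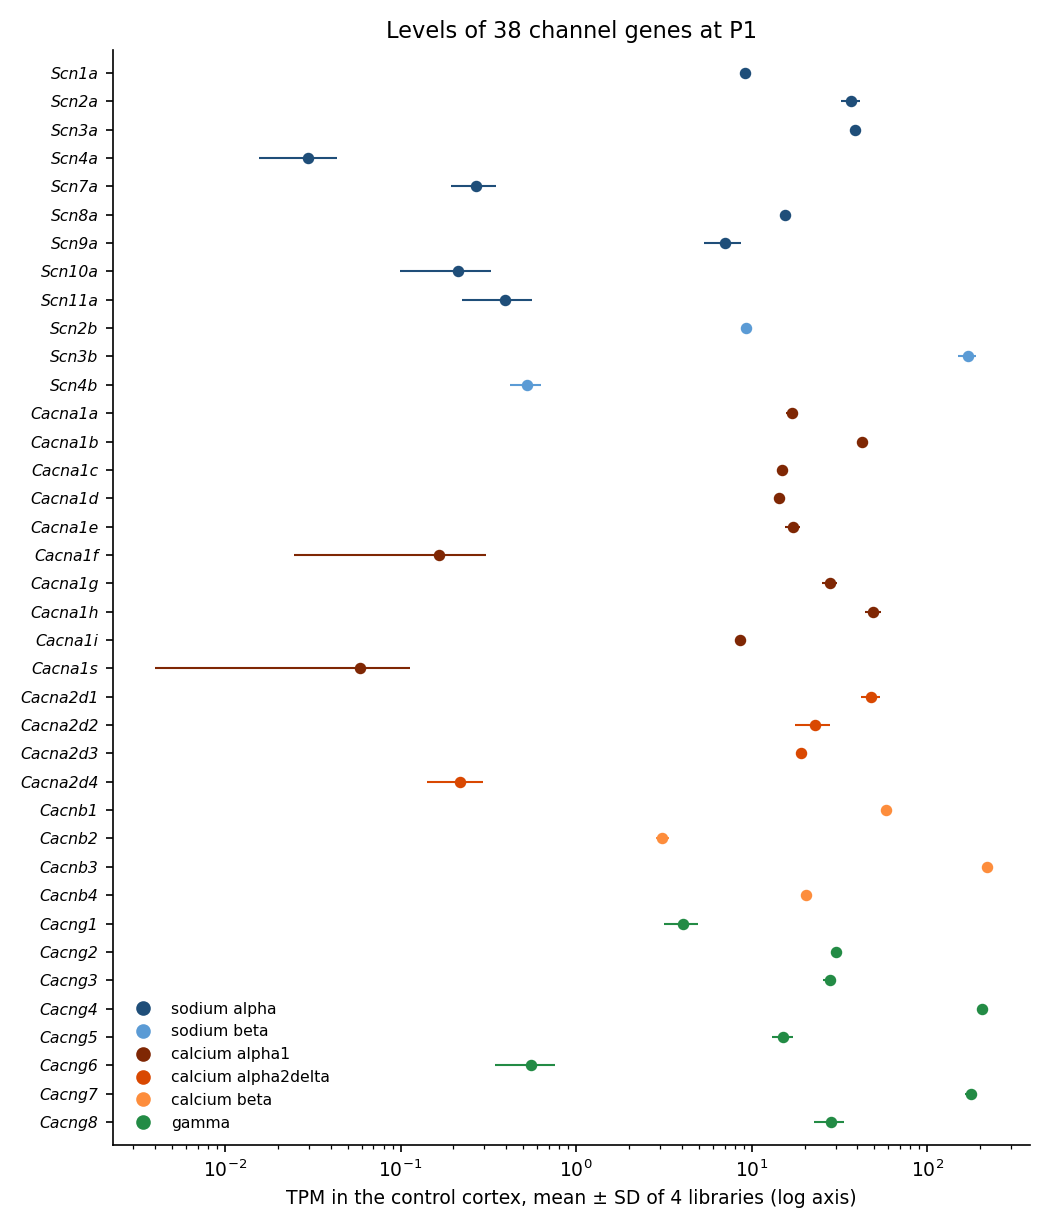
Level of 38 channel genes in the control cortex as TPM on a log axis, with points for the mean and lines for the SD of 4 libraries, coloured by subfamily. *Cacnb3*, *Cacng4*, *Cacng7* and *Scn3b* lie above 150 TPM, and *Cacna1f*, *Cacna1s*, *Scn4a*, *Scn10a* and *Scn11a* lie below 2 TPM.

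Of the 40 members 35 passed edgeR's filter on low counts. The 5 that did not were *Scn4a* (8 counts over all 8 libraries), *Cacna1s* (19), *Cacng6* (67), *Cacna1f* (70) and *Scn10a* (83, of which 32 were in dcKO_Nex-Cre replicate 1), and they were not tested. In the comparison of dcKO_Nex-Cre with control no tested member passed an adjusted p of 0.05 by edgeR's quasi-likelihood test with Benjamini-Hochberg adjustment over all 16287 genes, where 0.884% of genes did (0.510% lower and 0.375% higher in the mutant). At an unadjusted p under 0.05 there were 6 members, 3 higher and 3 lower in the dcKO_Nex-Cre cortex. That is 17.1% of those tested, beside 13.6% of all genes (6.59% higher and 7.05% lower), so the members' share lay near the background. Log2 fold changes lay at −0.57 in *Scn11a* and at 0.76 in *Scn4b*, and the members had a median of −0.003 beside 0.004 over all genes. By DESeq2's Wald test 1 member passed, *Scn1a*, beside 2.66% of genes.

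**Figure D2:**
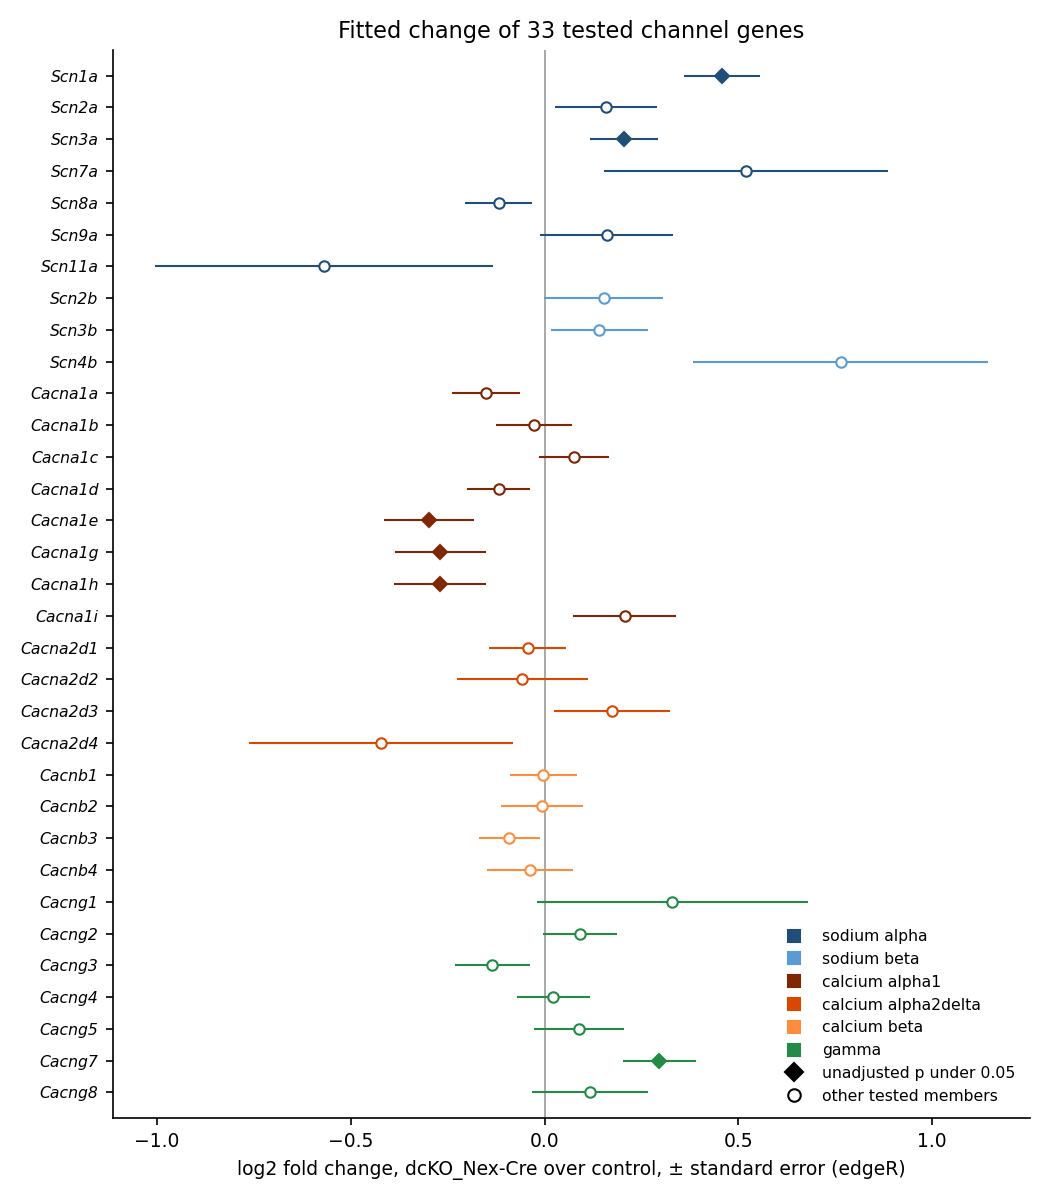
Log2 fold change of 33 tested channel genes in the dcKO_Nex-Cre over the control cortex, with the standard error from edgeR (n = 4 per group), where filled diamonds mark an unadjusted p under 0.05. *Scn1a*, *Scn3a* and *Cacng7* lie above 0 and *Cacna1e*, *Cacna1g* and *Cacna1h* below, and no member passed at an adjusted p of 0.05.

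*Scn1a* (ENSMUSG00000064329, chromosome 2 of GRCm38, 66270778 to 66440840, minus strand), the alpha gene best known from Dravet syndrome, had the smallest p of all members. The control libraries held 30.5, 31.5, 26.1 and 27.9 CPM and the dcKO_Nex-Cre libraries 42.1, 34.0, 39.5 and 43.8 CPM. Every mutant library was above every control library. A lack of overlap with the mutant higher was found for 1 of 35 members beside 3.99% of all genes. The means were 29.0 ± 2.49 and 39.8 ± 4.27 CPM (SD, n = 4), and the mutant mean was 137% of the control. The log2 fold change was 0.46 ± 0.10 (SE), with an unadjusted p of 0.000686 and an adjusted p of 0.0604 by edgeR, just outside the threshold. The exact permutation test over samples, two-sided, gave p = 0.0286, the smallest that 70 regroupings of 4 against 4 allow. The adjusted p was 0.00284 by DESeq2's Wald test and 0.0142 by edgeR with no filter, which called 0.860% of genes. Within lane tag 2 (4 control and 2 dcKO_Nex-Cre libraries) the log2 fold change was 0.40 ± 0.11 (SE) with an adjusted p of 0.0912, where 1.48% of genes passed. The log2 fold change stayed between 0.41 and 0.53 when any 1 library was left out, and the adjusted p between 0.0281, without dcKO_Nex-Cre replicate 4, and 0.207. It was under 0.05 in that 1 of the 8 fits.

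The other 3 main brain alpha genes did not move with it to the same extent. *Scn3a* held 131, 156, 129 and 130 CPM in the control and 163, 141, 156 and 169 CPM in the dcKO_Nex-Cre cortex, where control replicate 2 reached into the mutant range. Its log2 fold change was 0.20 ± 0.09 (SE, adjusted p = 0.337 by edgeR). *Scn2a* held 137, 119, 129 and 144 CPM in the control and 190, 127, 154 and 120 CPM in the mutant. Its groups overlapped widely, with a log2 fold change of 0.16 ± 0.13 (SE, adjusted p = 0.612 by edgeR). *Scn8a* held 66.5, 81.5, 62.7 and 66.8 CPM in the control and 63.1, 62.8, 64.0 and 65.6 CPM in the mutant, a log2 fold change of −0.12 ± 0.09 (SE, adjusted p = 0.555 by edgeR). Within lane tag 2 the log2 fold changes were 0.16 for *Scn3a*, 0.26 for *Scn2a* and −0.14 for *Scn8a*. Single libraries moved these values, *Scn2a* to 0.014 without dcKO_Nex-Cre replicate 1 and 0.25 without dcKO_Nex-Cre replicate 4, and *Scn8a* to −0.025 without control replicate 2.

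**Figure D3:**
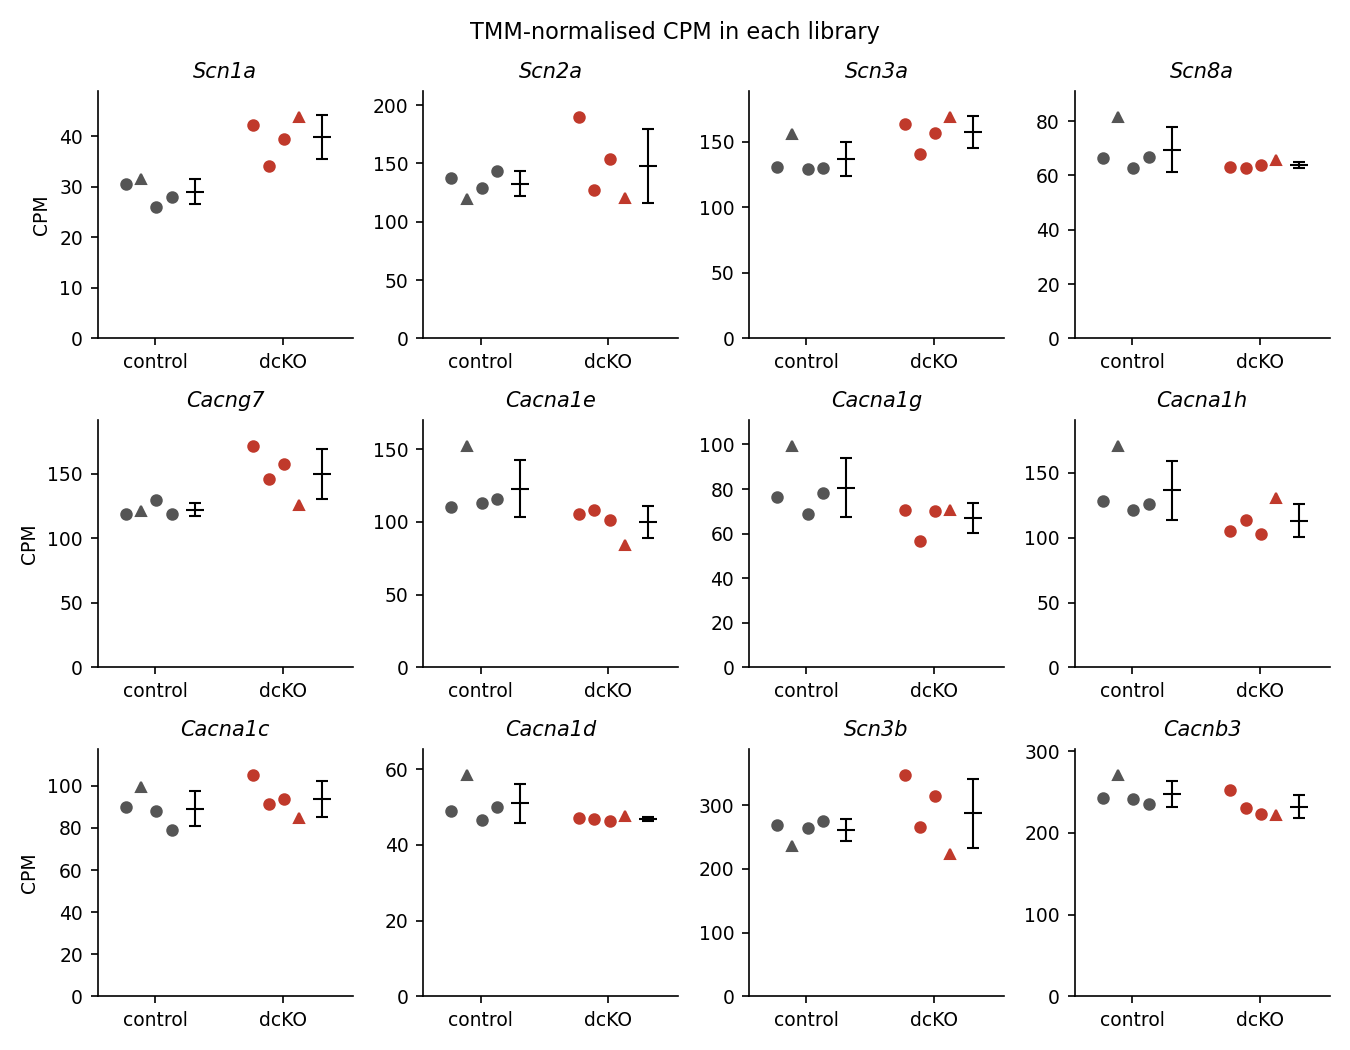
TMM-normalised CPM of 12 channel genes in each of the 4 control (grey) and 4 dcKO_Nex-Cre (red) libraries, replicates 1 to 4 from left to right, with the mean ± SD beside them and triangles for control replicate 2 and dcKO_Nex-Cre replicate 4. For *Scn1a* and *Cacna1e* the groups do not overlap, and for *Cacna1e*, *Cacna1g* and *Cacna1h* the control replicate 2 lies above the other 3 controls.

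Expressed as shares of the summed TPM of *Scn1a*, *Scn2a*, *Scn3a* and *Scn8a*, which does not depend on how libraries are scaled, the groups did not overlap for *Scn1a* and *Scn8a*. This view was chosen after the values were seen and is given with no test, and since the shares sum to 100% a higher share of one gene lowers the others. *Scn1a* took 9.70%, 9.47%, 8.72% and 8.78% in the control and 10.6%, 10.8%, 10.99% and 12.6% in the dcKO_Nex-Cre cortex. *Scn8a* took 14.9%, 17.3%, 14.8% and 14.9% in the control and 11.2%, 14.1%, 12.6% and 13.4% in the mutant. The lack of overlap held with the longest transcript as the length. *Scn2a* ranged from 31.3% to 39.7% and from 30.3% to 41.6%, and *Scn3a* from 36.7% to 41.9% and from 36.6% to 43.6%, so that these shares overlapped. The share of *Scn2a* was lowest in control replicate 2 and dcKO_Nex-Cre replicate 4, where that of *Scn3a* was highest.

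**Figure D4:**
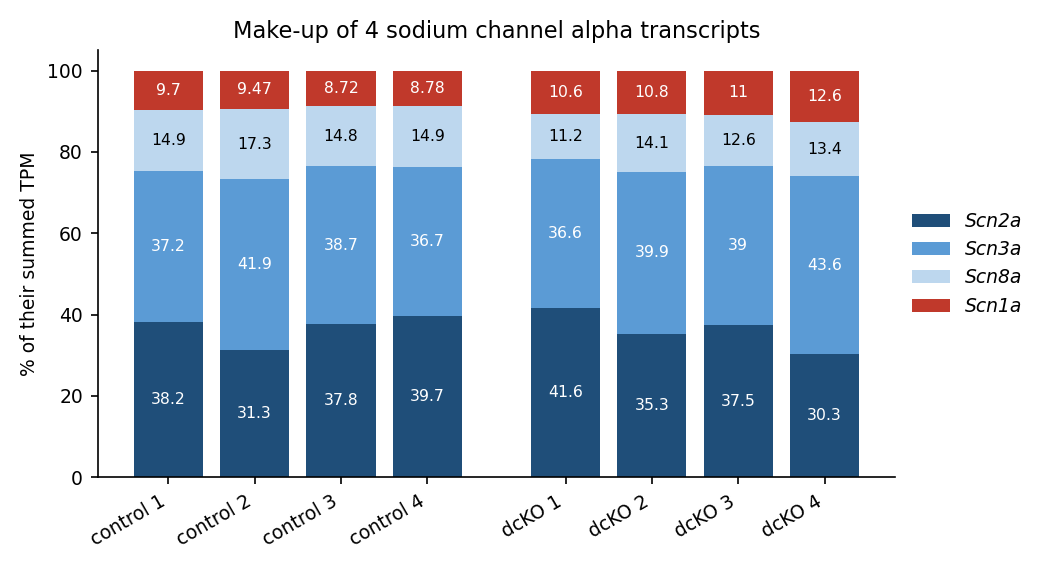
Stacked bars of the share (%) that *Scn2a*, *Scn3a*, *Scn8a* and *Scn1a* take of their summed TPM in each control and dcKO_Nex-Cre library. The *Scn1a* share lies between 8.72% and 9.70% in the controls and between 10.6% and 12.6% in the mutants.

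*Scn1a* lies in a run of 5 sodium alpha genes on chromosome 2 (65457118 to 66784914), with *Scn3a*, *Scn2a*, *Scn9a* and *Scn7a*. All 5 had a log2 fold change above 0, beside 8283 of all 16287 genes. So did the 3 other tested genes within the run, *Csrnp3*, *Galnt3* and *Ttc21b*, each with an adjusted p of at least 0.0773 by edgeR. The 5 sodium alpha genes ran from 0.16 ± 0.13 (SE, *Scn2a*) to 0.52 ± 0.37 (SE, *Scn7a*), with *Scn9a* at 0.16 ± 0.17 (SE). None of the 5 passed with all 8 libraries. The peripheral nerve gene *Scn9a* held 23.9, 36.8, 22.4 and 19.4 CPM in the control and 26.5, 32.2, 29.3 and 26.2 CPM in the dcKO_Nex-Cre cortex, with control replicate 2 above every mutant. *Scn7a*, a sodium sensor rather than a voltage-gated pore, stayed at or below 1.03 CPM in every library. On chromosome 9 the sensory neuron gene *Scn11a* had a log2 fold change of −0.57 ± 0.44 (SE) and did not pass the test. The sensory neuron marker *Prph* fell (log2 fold change −2.31, adjusted p = 0.00202 by edgeR), while *Calca* (−0.36) and *Isl1* (0.63), the other tested markers of this list of 4, lay on either side of 0 and did not pass, and the list's summed level was 7.62 to 23.5 CPM in the control and 4.49 to 37.6 CPM in the mutant. Its part in the *Scn11a* value was not tested.

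None of the sodium beta genes passed at an adjusted or an unadjusted p of 0.05. *Scn3b*, the most abundant, held 269, 236, 265 and 275 CPM in the control and 347, 265, 314 and 224 CPM in the dcKO_Nex-Cre cortex. Its mutant libraries spread on both sides of the controls, with dcKO_Nex-Cre replicate 4 the lowest of all 8 (log2 fold change 0.14 ± 0.13 SE, adjusted p = 0.633 by edgeR). It was 0.038 without dcKO_Nex-Cre replicate 1 and 0.25 without dcKO_Nex-Cre replicate 4. *Scn2b* (0.15) and *Scn4b* (0.76 ± 0.38 SE) had log2 fold changes within the spread as well. *Scn4b*, which is rich in striatal neurons, reached 2.18 CPM in dcKO_Nex-Cre replicate 2 while the other libraries held 0.550 to 1.23 CPM. The summed striatal markers were also highest there, at 118 CPM against 26.6 to 63.9 CPM in the other libraries, and their part in the *Scn4b* value was not tested.

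Among calcium channel pores 6 of the 8 tested had a log2 fold change below 0 (5 or 6 in the other fits). Over all genes it was below 0 in 8004 of 16287. Of the 8 tested pores, 3 were lower at an unadjusted p under 0.05, beside 7.05% of all genes. *Cacna1e* (ENSMUSG00000004110, chromosome 1, 154390731 to 154884501, minus strand), the R-type pore found in dendrites and terminals, held 110, 152, 113 and 116 CPM in the control and 105, 108, 101 and 84.0 CPM in the dcKO_Nex-Cre cortex. The groups did not overlap, but the gap between them was small next to the distance of control replicate 2 from the other controls. *Cacna1e* was the 1 member without overlap and lower in the mutant, beside 4.01% of all genes. The means were 123 ± 19.7 and 99.8 ± 10.9 CPM (SD, n = 4), the log2 fold change −0.30 ± 0.12 (SE, p = 0.0256, adjusted p = 0.291 by edgeR) and the exact permutation p 0.0286. It was −0.17 without control replicate 2 and −0.20 within lane tag 2.

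The T-type pores *Cacna1g* and *Cacna1h*, which open near the resting potential, followed the same layout. *Cacna1g* held 76.4, 99.3, 68.9 and 78.1 CPM in the control and 70.6, 56.7, 70.03 and 70.5 CPM in the dcKO_Nex-Cre cortex. *Cacna1h* held 128, 171, 121 and 126 CPM in the control and 105, 114, 103 and 131 CPM in the mutant. In both genes control replicate 2 was the highest library and the groups overlapped. The log2 fold changes were −0.27 ± 0.12 (SE) in each, with adjusted p-values of 0.342 and 0.346 by edgeR and an exact permutation p of 0.114 in each. Within lane tag 2 they were −0.34 and −0.31. Without control replicate 2 they were −0.15 and −0.14, and no member was then lower at an unadjusted p under 0.05, beside 5.95% of all genes. Summed markers of radial glia and astrocytes were lower, at 2054 to 2446 CPM in the control and 1541 to 2022 CPM in the mutant. Of these 5 genes, 3 had a log2 fold change below 0 and 2 above 0, up to 0.11. None of the 5 passed, and *Fabp7* was nearest (log2 fold change −0.50, adjusted p = 0.113 by edgeR, and 0.0192 within lane tag 2), with groups that did not overlap. Interneuron markers summed to 783 to 916 and 689 to 818 CPM, and none of the 8 passed. Of these 8 genes, 6 had a log2 fold change below 0 and 2 above 0, up to 0.19, with a median of −0.07. The lowest was *Sst* at −0.84 (adjusted p = 0.0645 by edgeR, 0.0239 without control replicate 2 and 0.00129 by DESeq2's Wald test). The part of these cells in the values of the pores was not tested. The third T-type pore, *Cacna1i*, had the opposite sign (0.21 ± 0.13 SE, adjusted p = 0.511 by edgeR), with 23.1, 26.3, 22.4 and 24.01 CPM in the control and 34.1, 25.8, 29.2 and 20.99 CPM in the mutant.

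The remaining pores were within the spread of the libraries. The L-type *Cacna1c* held 89.8, 99.4, 88.2 and 79.1 CPM in the control and 105, 91.5, 94.0 and 84.8 CPM in the dcKO_Nex-Cre cortex (log2 fold change 0.08 ± 0.09 SE). The L-type *Cacna1d* held 48.9, 58.4, 46.5 and 50 CPM in the control and 47.0, 46.7, 46.2 and 47.6 CPM in the mutant (−0.12 ± 0.08 SE). *Cacna1a* (−0.15 ± 0.09 SE) and *Cacna1b* (−0.03 ± 0.10 SE), the pores that serve fast transmitter release, gave adjusted p-values of 0.470 and 0.920 by edgeR.

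With all 8 libraries none of the alpha2delta and beta genes, whose products bind the calcium pores, had an unadjusted p under 0.05. *Cacnb3* held 242, 271, 242 and 235 CPM in the control and 253, 231, 223 and 222 CPM in the dcKO_Nex-Cre cortex (log2 fold change −0.09 ± 0.08 SE). All 4 beta genes had log2 fold changes between −0.09 and −0.003, none with an unadjusted p under 0.05, and their signs were not stable, with 0 to 3 of the 4 above 0 in the other fits. *Cacna2d1*, a target of gabapentin, held 179, 153, 161 and 176 CPM in the control and 167, 136, 161 and 186 CPM in the mutant (−0.04 ± 0.10 SE). The other alpha2delta genes were at −0.06 (*Cacna2d2*), 0.17 (*Cacna2d3*) and −0.42 (*Cacna2d4*, at or below 0.749 CPM in every library). *Cacna2d3* ranged from 44.8 to 49.8 CPM in the control and from 38.1 to 70.1 CPM in the mutant. Within lane tag 2 its log2 fold change was 0.41 ± 0.10 (SE, adjusted p = 0.0724 by edgeR). It was 0.30 (adjusted p = 0.107 by edgeR) without dcKO_Nex-Cre replicate 4 and 0.21 (0.660) without control replicate 2.

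*Cacng7* (ENSMUSG00000069806, chromosome 7, 3332955 to 3368221, plus strand) had the next smallest p of the members after *Scn1a*. It encodes a regulator of AMPA receptors and held 119, 121, 130 and 119 CPM in the control and 171, 146, 157 and 126 CPM in the dcKO_Nex-Cre cortex. Of the mutants, 3 were above every control and dcKO_Nex-Cre replicate 4 lay inside the control range. The means were 122 ± 5.23 and 150 ± 19.4 CPM (SD, n = 4), with a log2 fold change of 0.30 ± 0.09 (SE, p = 0.00878, adjusted p = 0.198 by edgeR) and an exact permutation p of 0.0571. Without dcKO_Nex-Cre replicate 4 the log2 fold change was 0.38 ± 0.07 (SE) with an adjusted p of 0.0171. That fit called 7.73% of all genes. Within lane tag 2 the log2 fold change was 0.38 ± 0.09 (SE) with an adjusted p of 0.0610. With any 1 library left out it ran from 0.23 to 0.38, and the edgeR adjusted p from 0.0171 to 0.442. *Cacng7* passed in 1 of these 8 fits. *Cacng4*, the most abundant gamma gene, held 200, 212, 206 and 212 CPM in the control and 245, 211, 209 and 177 CPM in the mutant (0.02 ± 0.09 SE). Of the 7 tested gamma genes 6 had a log2 fold change above 0, beside 8283 of all 16287 genes, with *Cacng3* at −0.14 the exception. There were 4 above 0 without dcKO_Nex-Cre replicate 1, and 5 or 6 in the other fits. With all 8 libraries none passed at an adjusted p of 0.05.

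The calls were also made without both libraries of high mitochondrial share. With these left out (3 control and 3 dcKO_Nex-Cre libraries, a choice made after seeing the data), 6 members passed at an adjusted p of 0.05 by edgeR, in a fit that called 10.99% of all 16330 genes tested. *Scn1a* (log2 fold change 0.46), *Cacng7* (0.37), *Scn9a* (0.42), *Scn3a* (0.24) and *Cacna1i* (0.37) were higher and *Cacna1h* (−0.22) was lower. *Cacna1e* was then at −0.10 and *Cacna1g* at −0.17, neither past the test.

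**Figure D5:**
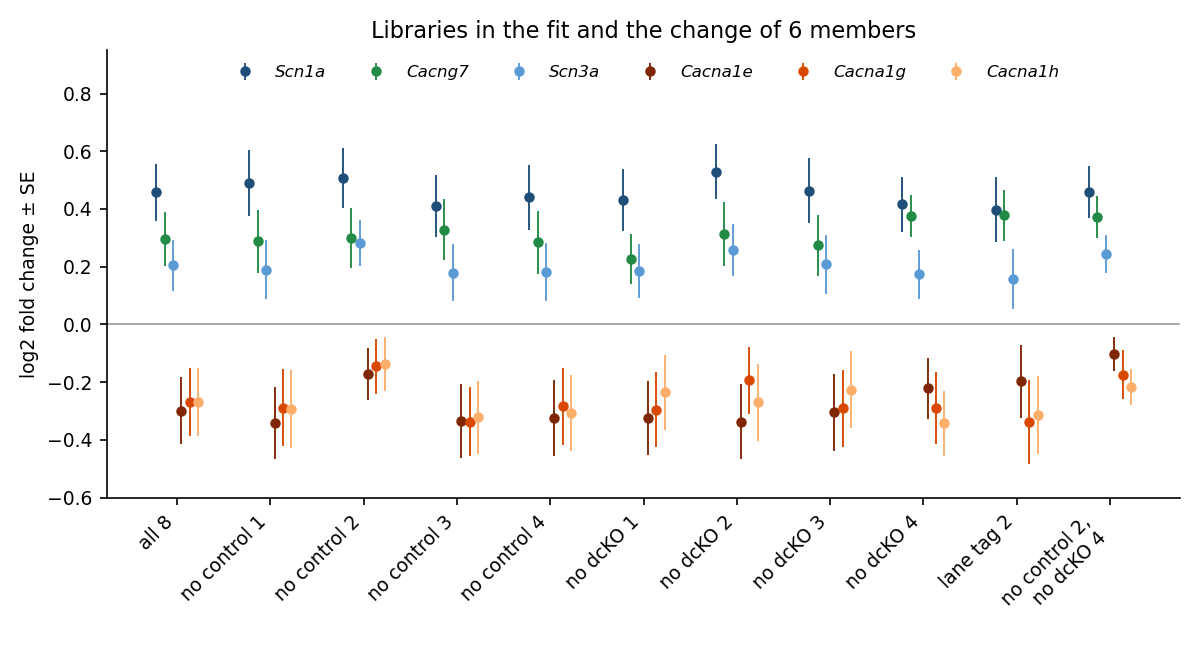
Log2 fold change ± SE of 6 channel genes in fits that use all 8 libraries, leave out each library in turn, keep lane tag 2, or leave out control replicate 2 and dcKO_Nex-Cre replicate 4 together. The 3 genes above 0 and the 3 below 0 keep their sign in these 11 fits, and the 3 lower genes come nearest to 0 in the fits without control replicate 2.

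Genes whose products bind or tune these channels were taken from a list of 35, of which 34 were matched and 33 tested. Of these 1 was called lower, *Fgf12*, beside 0.510% of all genes. An unadjusted p under 0.05 was found for 12.1% of the list, beside 13.6% of all genes. *Fgf12*, a cytoplasmic factor that binds the tail of sodium channel alpha subunits, held 62.6, 53.6, 57.2 and 60.3 CPM in the control and 42.0, 35.8, 42.4 and 42.2 CPM in the dcKO_Nex-Cre cortex. Every mutant library was below every control library (log2 fold change −0.53 ± 0.08 SE, adjusted p = 0.0196 by edgeR), and within lane tag 2 the adjusted p was 0.0314. With any 1 library left out it ran from 0.00804 to 0.101, over the threshold without control replicate 1, 3 or 4 or dcKO_Nex-Cre replicate 2 or 3. No other gene of the list passed with all 8 libraries. *Calm2*, a calmodulin gene, held 1014, 930.6, 934 and 991 CPM in the control and 799, 717, 809 and 874 CPM in the mutant, without overlap (log2 fold change −0.27, adjusted p = 0.179 by edgeR, exact permutation p = 0.0286). By DESeq2's Wald test the adjusted p of *Calm2* was 0.0459. By edgeR it was 0.0341 without dcKO_Nex-Cre replicate 4 and 0.0140 in the 6 libraries of lower mitochondrial share. These fits called 2.66%, 7.73% and 10.99% of all genes. *Calm2* did not pass by edgeR within lane tag 2 (adjusted p = 0.0873), without control replicate 2 (0.223) or with no filter (0.349). *Nedd4*, a ubiquitin ligase, was at 0.30 (adjusted p = 0.366 by edgeR), and at 0.44 (0.0175) without dcKO_Nex-Cre replicate 4, 0.38 (0.00759) in those 6 libraries and 0.46 (0.0610) within lane tag 2. *Rims2*, of the release site, was at 0.17 (adjusted p = 0.331 by edgeR). Among 10 AMPA receptor and auxiliary genes set beside the gamma genes, *Cnih3*, a cornichon that associates with AMPA receptors, fell from 73.3, 49.7, 71.3 and 75.9 CPM in the control to 44.1, 37.7, 38.6 and 36.1 CPM in the mutant (log2 fold change −0.79 ± 0.13 SE, adjusted p = 0.0202 by edgeR), with an adjusted p of 0.0625 within lane tag 2. With any 1 library left out it ran from 0.00296 to 0.0963, over the threshold without the same 5 libraries as for *Fgf12*. The other 9 did not pass. Of these AMPA receptor and auxiliary genes 10% had an unadjusted p under 0.05, beside 13.6% of all genes.

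The members are long genes, with a median span of 111 kb where tested beside 22.1 kb over all tested genes. The median log2 fold change of members was 0.15 for the 5 under 20 kb, −0.003 for the 11 of 20 to 100 kb, 0.09 for the 13 of 100 to 300 kb and −0.03 for the 6 over 300 kb. Over all tested genes the same medians were −0.03, 0.03, 0.06 and 0.03, with no steady order by length in the members.

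Promoter sequence of RefSeq on GRCm38.p6 was found for 30 of the 40 members (41 windows of 300 bases). The 250 bases before the start are shown for *Scn1a* and *Cacna1e*, the members whose groups did not overlap, and for *Cacng7*, each in the direction of transcription, with capitals for a match to a searched motif. The *Cacna1e* window lies inside the GENCODE span of the gene.
Scn1a, chr2:66440838-66441087, minus strand: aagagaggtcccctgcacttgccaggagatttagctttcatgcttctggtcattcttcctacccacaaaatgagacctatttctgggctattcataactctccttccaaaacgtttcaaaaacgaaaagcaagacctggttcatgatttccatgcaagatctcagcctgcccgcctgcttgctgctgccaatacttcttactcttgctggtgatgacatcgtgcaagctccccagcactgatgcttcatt
Cacna1e, chr1:154725921-154726170, minus strand: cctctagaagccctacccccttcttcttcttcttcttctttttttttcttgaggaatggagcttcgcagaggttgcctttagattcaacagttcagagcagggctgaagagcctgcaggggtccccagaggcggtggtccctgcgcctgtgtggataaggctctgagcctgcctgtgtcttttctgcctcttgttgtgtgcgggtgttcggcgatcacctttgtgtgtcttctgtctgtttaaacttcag
Cacng7, chr7:3332575-3332824, plus strand: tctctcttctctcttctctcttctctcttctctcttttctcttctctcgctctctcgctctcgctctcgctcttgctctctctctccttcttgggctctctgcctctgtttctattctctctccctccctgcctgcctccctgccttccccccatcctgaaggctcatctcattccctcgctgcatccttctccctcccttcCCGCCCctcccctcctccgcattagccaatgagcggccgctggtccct
Each motif was searched on both strands in the 300-base windows. The GC box GGGCGG, which appears in *Cacng7* as its reverse complement CCGCCC, was in 39.0% of member windows and in 35.7% of all 32851. The E-box CAGATG, a form bound by NeuroD factors, was in 17.1% and 17.2%. TATAAA was in 4.88% and 13.6%, the cyclic AMP element TGACGTCA in 0 of 41 member windows and 1.79% of all, and the RE1 parts TCAGCACC and GGACAGC in 0 of 41 and 4.88% of member windows and 1.65% and 6.56% of all. The windows of *Scn1a* and *Cacna1e* held none of the 6.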

How the data were processed

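RNA was isolated with TRIZOL from whole tissue of the P1 cortex, 4 control and 4 dcKO_Nex-Cre samples, and libraries were made with an Illumina TruSeq RNA v2 kit, which does not mark strand. Values are read counts by Ensembl identifier as the authors deposited them, 1 file per library and not normalized. The submitters' processing notes name mm10, while aligner, counter, annotation and counting rules are not given in the sources used here. Identifiers were matched to GENCODE M21 for 48349 of 48709 genes, and the unmatched held 0.0327% of counts. Each pair of libraries in a group differed by more than counting noise (chi-square per degree of freedom at least 3.76).

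The comparison used edgeR 4.0.16 in R 4.3.3 (filterByExpr, TMM, robust quasi-likelihood F test, two-sided, no covariates), with Benjamini-Hochberg adjustment over all 16287 genes tested and a threshold of 0.05. Standard errors were obtained from the log2 fold change and the F statistic. CPM and the SD over 4 libraries are on the TMM scale, and TPM were computed over all matched genes. Single members were also compared by an exact permutation test of mean CPM over 70 regroupings. The scripts were tested on simulated data. Alternatives were DESeq2 1.42.0 (size factors in edgeR, and the Wald test), no filter, at least 10 counts in every library, the replicate block, lane tag 2 only, and leaving out each library. The fit without 2 libraries was added after seeing the data. Tables and sequences were handled in Python 3.11.15 with pandas 2.3.3 and Biopython 1.88, and figures drawn with matplotlib 3.10.9.

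Named members were those with an unadjusted p under 0.05, the highest TPM of each subfamily, and *Scn1a*, *Scn2a*, *Scn3a*, *Scn8a*, *Cacna1c*, *Cacna1d*, *Cacna1e*, *Cacna1g* and *Cacna1h*. Other members are given by value where they show range or spread. Members and lists were chosen with earlier results of these data known. Of the 12 marker lists, projection neurons, interneurons, radial glia and astrocytes, oligodendrocyte precursors, microglia, endothelium, mural cells, skeletal muscle, striatum, choroid plexus, red blood cells and peripheral sensory neurons, only *Cspg4* and *Prph* among their genes passed the test with all 8 libraries, and sums are given for the lists set beside members. Values of a few withheld members enter the counts and medians but are not given.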

Additional observations from a re-analysis of the deposited data

Results flagged for a closer look

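Single libraries were compared with the other 3 of their group for the CPM of the 35 tested members, 70 groups of 4 in all, and 7 stood far from the rest by Dixon's ratio at its 95% critical value. Chance alone gives about 1 in 20, or 3.5 of 70. Of the 7, 5 were control replicate 2. There *Cacna1e* was at 152 CPM against 110 to 116 CPM in the other controls, *Cacna1h* at 171 against 121 to 128 CPM, *Cacna1b* at 134 against 115 to 117 CPM, *Scn3a* at 156 against 129 to 131 CPM and *Scn7a* at 0.876 against 0.458 to 0.485 CPM. *Cacnb4* stood at 62.1 CPM in dcKO_Nex-Cre replicate 4 against 45.3 to 47.5 CPM in the other mutants. *Cacna1g* stood at 56.7 CPM in dcKO_Nex-Cre replicate 2 against 70.03 to 70.6 CPM.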

How the results depend on the processing

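Counts of calls moved with the libraries and the test. All genes called numbered 144, and 460 by DESeq2's Wald test, 259 with no filter, 248 within lane tag 2, 54 with the replicate block, 18 to 1278 (without dcKO_Nex-Cre replicate 4) with 1 library left out, and 1794 without control replicate 2 and dcKO_Nex-Cre replicate 4. Members called were 0, but 1 by the Wald test and with no filter (*Scn1a* in each), 0 to 2 with 1 library left out and 6 without those 2 libraries. Members with an unadjusted p under 0.05 were 3 lower and 3 higher, but 5 higher within lane tag 2, 0 to 4 lower and 2 to 7 higher with 1 library left out, and 1 lower and 10 higher without the 2 libraries. Over the same 35 members the median log2 fold change was −0.003, 0.053 within lane tag 2 and −0.03 to 0.04 with 1 library left out. The filter within lane tag 2 also kept *Scn10a*, and with it that median was 0.087. *Smarcc1* lost its call within lane tag 2 (−0.46), with the block (−0.54) and in 6 of the 8 fits with 1 library left out (−0.63 to −0.47). *Cacng4* (−0.057 to 0.10) and *Cacna2d1* (−0.11 to 0.035) changed sign in such fits. Numbers did not pair the samples (correlations of deviations between samples with the same number 0.126, 0.0179, 0.135 and −0.138), and with the replicate block *Scn1a* had an adjusted p of 0.156. With the longest transcript as length, *Cacna2d1*, *Cacnb3* and *Cacng4* were at 62.2, 248.9 and 163 TPM and *Scn2a* passed *Scn3a*. The cause of these shifts was not tested.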
